A study of Oryctolagus cuniculus with 9 samples.

Results

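The HOX genes encode homeodomain transcription factors that give cells their position along the body axis. They were taken as every gene row whose name matched HOX, a cluster letter A to D and a number, which gave 36 rows of 23407 with no use of measured values. HOXA5, HOXB4 and HOXB7 were not analysed here. RNA was sequenced from the ligamentum flavum, the elastic ligament between neighbouring vertebral arches, of male New Zealand white rabbits aged 70 weeks. The labels give 3 libraries treated as "ISC load" (ISC, the intervertebral stress concentration level), 3 labelled Fused (the fused level) and 3 labelled Sham operation (Control). Per the labels' protocols, this surgery was done at 18 weeks of age: operated rabbits lost the supraspinal muscle over L3-4, and L2-3 and L4-5 were fused posterolaterally with instrumentation. The labels do not give the vertebral level of each library, nor which libraries share an animal, so p-values reflect only how far these libraries spread, which may be technical.

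As background, mammalian HOX genes stand in 4 clusters, and within a cluster the genes with low paralogue numbers are switched on early and towards the head, those with high numbers late and towards the tail. Adult fibroblasts and other mesenchymal cells keep much of this code. In mice, loss of the genes of paralogue group 10 alters the identity of lumbar vertebrae and loss of those of group 11 that of sacral vertebrae, and group 9 genes act at thoracic levels. HOX proteins bind DNA with cofactors of the PBX, MEIS and PKNOX families (TALE homeodomain proteins), retinoic acid and CDX factors help switch the clusters on, and Polycomb and Trithorax complexes keep genes of the clusters silent or active.

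On the oryCun2 assembly the HOXA rows lay on chromosome 10 (11814283 to 11917005, 10 rows), HOXB on chromosome 19 (38666517 to 38830939, 8 rows), HOXC on chromosome 4 (37724475 to 37837497, 9 rows) and HOXD on chromosome 7 (115653543 to 115748667, 9 rows). The libraries held between 1233155 and 1869209 reads, of which 767 to 2035 lay in HOX rows. Values are scaled reads, the authors' read counts divided by a size factor of the library, so that 3 reads came to between 2.40 and 3.58; values near or below that are limited by counting error. HOX rows took 0.109%, 0.0554% and 0.0545% of the reads in ISC replicates 1 to 3, 0.0906%, 0.0516% and 0.0661% in the Fused libraries and 0.106%, 0.109% and 0.109% in the Control libraries. The 3 Control libraries lay close together, ISC replicate 1 had a share as high, and the other 5 operated libraries lay below all Control libraries.

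The libraries also differed in markers of other cell types. The 8 erythroid markers summed to 483, 8408 and 415 scaled reads in ISC replicates 1 to 3, against 1267, 6618 and 7339 in the Fused libraries and 171, 59.1 and 152 in the Control libraries, in the same order, so that ISC replicate 2 and Fused replicates 2 and 3 stood apart. The 5 of 7 neutrophil markers that had a row summed to 842, 13369 and 351 scaled reads in ISC, 1838, 19676 and 10262 in Fused and 139, 75.1 and 220.1 in Control. The 4 of 8 skeletal muscle markers that had a row summed to 540.4, 4.77 and 6.02 scaled reads in ISC, 18.6, 15.1 and 8.75 in Fused and 2141, 8.78 and 289.7 in Control, highest in Control replicate 1 and next in ISC replicate 1. Of the 10 ligament fibroblast markers 9 had a row and all 9 were read; they summed to 24636, 84847 and 51867 scaled reads in ISC, 9737, 21512 and 4584 in Fused and 21302, 33225 and 17528 in Control. In bulk tissue fewer cells of a type and less RNA per cell cannot be told apart.

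The highest HOX levels in this ligament, per kilobase of exon, were in rows of paralogue numbers 4 to 10, and rows from number 11 on were low. Not every row of numbers 4 to 10 was high. HOXB5 and HOXC5 averaged 3.38 and 4.66 scaled reads per kilobase over the 9 libraries, below HOXA3 at 17.9. Per kilobase of exon the highest row was HOXA9, at 126 ± 115 in ISC, 75.6 ± 31.6 in Fused and 147 ± 44.3 in Control scaled reads per kilobase (mean ± SD, n = 3 each). HOXA6 followed at 63.9 ± 32.0 in ISC, 71.4 ± 26.1 in Fused and 124 ± 19.0 in Control, then HOXA10 at 52.3 ± 33.8 in ISC, 53.3 ± 21.8 in Fused and 74.9 ± 7.83 in Control. This order takes in only rows named HOX. It leaves out LOC100358870, described below, which RefSeq names HOXD9. That row is 1257 bases long and had between 49.2 and 139 scaled reads in the 9 libraries. In ISC and in Control the spread of HOXA9 reached the level of HOXA6, and in Fused HOXA9 and HOXA6 differed by less than their SDs, so the order of the highest 2 rows was not separated from library spread. HOXC10 had 43.0 ± 9.79 in ISC, 42.8 ± 22.5 in Fused and 61.5 ± 19.4 in Control scaled reads per kilobase. HOXD4 had 49.5 ± 16.0 in ISC, 33.7 ± 12.5 in Fused and 53.4 ± 6.69 in Control and HOXD8 29.9 ± 11.04 in ISC, 35.3 ± 9.84 in Fused and 49.0 ± 5.34 in Control, on the same scale. The HOXA rows together held 50.1% ± 11.3 of the HOX reads per kilobase in ISC, 50.6% ± 6.03 in Fused and 52.3% ± 5.14 in Control (SD, n = 3 each). HOXB rows held the smallest share, 11.4% ± 3.40 in ISC, 11.3% ± 3.78 in Fused and 11.9% ± 1.57 in Control. The lead of HOXA depended on row length. In scaled reads, HOXA rows held 30.8% in ISC, 33.0% in Fused and 33.1% in Control. HOXC rows then held 26.9%, 28.3% and 27.8%, and HOXD rows 29.2%, 25.6% and 25.5%, in the same order. HOXD4 had the most scaled reads, on average 229.9 over the 9 libraries, against 191 for HOXA10 and 96.4 for HOXA9. Lengths are those of the deposited rows, and some are unusual. The HOXC6 row is 9679 bases long, the HOXA6 row 684 and the HOXA9 row 831, on which their place in this order depends.

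**Figure D1:**
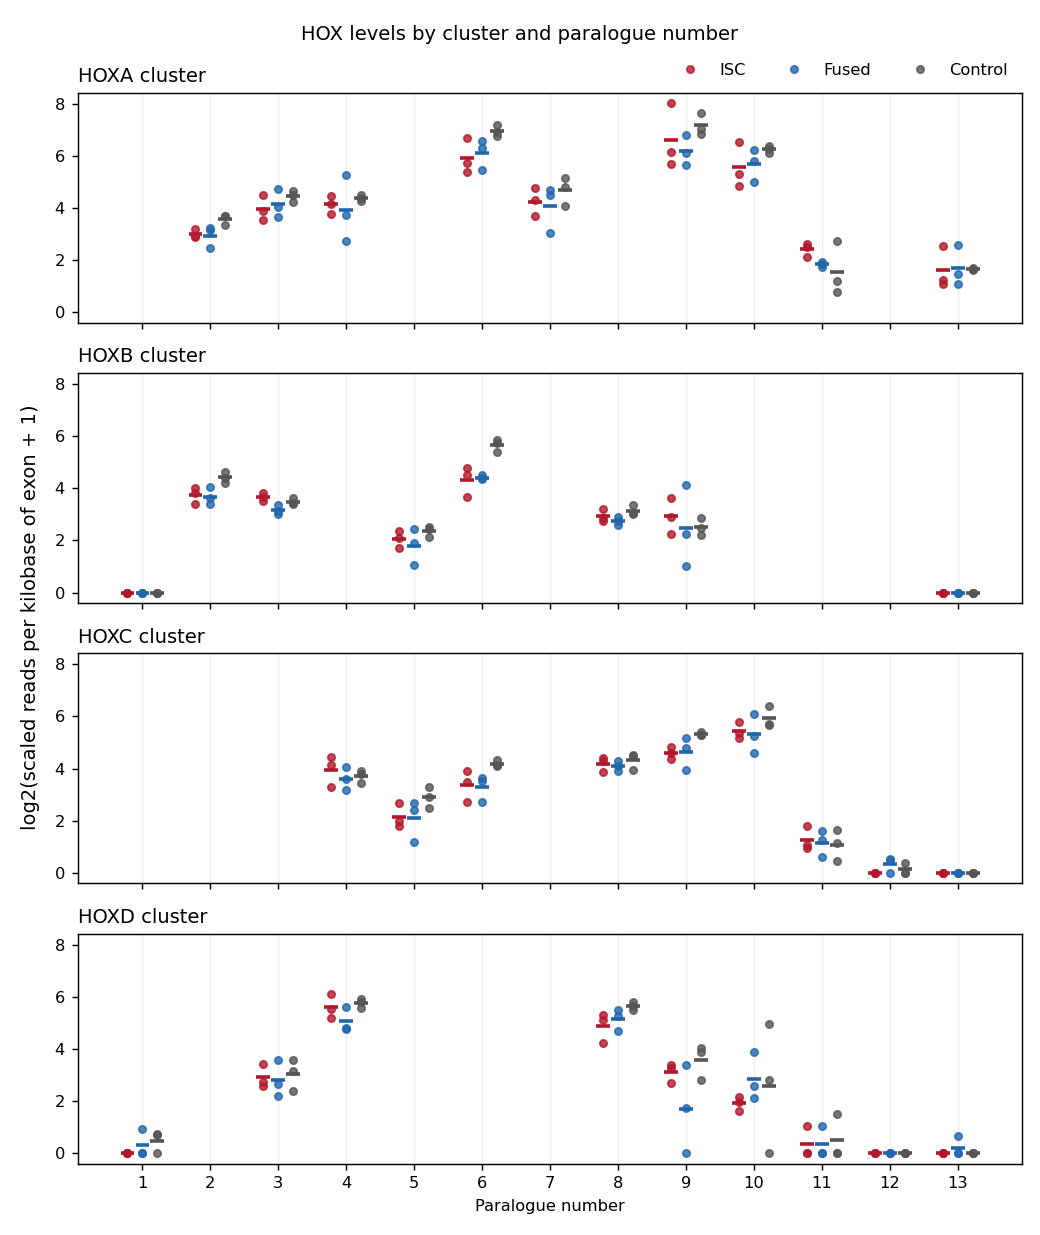
Level of HOX rows by cluster (panels) and paralogue number (x axis) as log2(scaled reads per kilobase of exon + 1); each point is 1 library and each short line the mean of 3. The highest rows are of paralogue numbers 4 to 10, though some rows of these numbers, such as HOXB5 and HOXC5, are low. Rows from number 11 on are near 0, except for the low rows HOXA11, HOXA13 and HOXC11. HOXB1, HOXB13, HOXC13 and HOXD12 are at 0 in all 9 libraries.

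In paralogue groups 1 to 4, whose genes have head-most limits in the hindbrain and neck region, the most abundant row was HOXD4. HOXD4 (chromosome 7, 115709629 to 115715452) had 339, 230.4 and 181 scaled reads in ISC replicates 1 to 3, against 243, 132 and 136 in the Fused libraries and 232, 297 and 280.1 in the Control libraries, in the same order. Its ISC libraries spread over the Control range and Fused replicates 2 and 3 were the lowest of the 9. HOXC4 had 64.3, 27.5 and 52.2 scaled reads in ISC, 34.8, 49.3 and 25.1 in Fused and 31.1, 39.9 and 43.5 in Control. HOXA4 had 15.0, 11.9 and 9.03 scaled reads in ISC, 26.7, 4.02 and 8.75 in Fused and 14.1, 15.2 and 13.05 in Control. ISC replicate 1 was the highest library for HOXC4 and Fused replicate 1 for HOXA4, and in both genes the groups overlapped. HOXB3 had 37.5, 29.8 and 33.1 scaled reads in ISC, 26.7, 20.1 and 21.9 in Fused and 32.1, 27.2 and 27.8 in Control, with all Fused libraries below all ISC and all Control libraries, and ISC and Control overlapping. HOXD3 had 23.6, 40.6 and 21.1 scaled reads in ISC, 45.3, 15.1 and 21.9 in Fused and 17.9, 32.7 and 45.2 in Control. HOXA3 had 26.8, 16.7 and 13.04 scaled reads in ISC, 31.4, 19.1 and 14.2 in Fused and 21.7, 26.4 and 29.6 in Control. Both had overlapping groups. HOXB2, which helps pattern the hindbrain, had 20.4, 13.1 and 18.1 scaled reads in ISC, 20.9, 13.1 and 15.3 in Fused and 27.3, 24.0 and 32.2 in Control. HOXA2, which patterns the hindbrain and second branchial arch, had 7.51, 7.16 and 9.03 scaled reads in ISC, 9.29, 5.03 and 8.75 in Fused and 13.2, 13.6 and 10.4 in Control. In HOXB2 and HOXA2 the 3 Control libraries lay above all 6 operated ones. HOXD1 had 3 reads over the 9 libraries and HOXB1 had 0, which allows up to 3 reads, between 2.40 and 3.58 scaled reads, in a library.

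Groups 5 to 8, whose genes act around the neck, thorax and forelimb level, formed the class whose sums separated Control from the operated libraries. Summed over its 9 rows, this class had 411, 308 and 225 scaled reads in ISC, 373, 223 and 347 in Fused and 528, 559 and 529.7 in Control, so each operated library lay below each Control library. HOXB6 (chromosome 19, 38758005 to 38767021) had 53.6, 44.2 and 24.1 scaled reads in ISC replicates 1 to 3, against 44.1, 39.2 and 40.5 in the Fused libraries and 115, 83.1 and 107 in the Control libraries, in the same order. Each Control library held more than the highest operated library, ISC replicate 1. HOXA6 (chromosome 10, 11861118 to 11866900) had 68.6, 27.5 and 35.1 scaled reads in ISC, 63.9, 29.2 and 53.6 in Fused and 73.5, 99.0 and 81.8 in Control. HOXC6 (chromosome 4, 37803745 to 37814143) had 137, 97.9 and 54.2 scaled reads in ISC, 110.3, 54.3 and 103 in Fused and 158, 184 and 161 in Control. In all 3 group 6 genes the Control libraries stood above every operated library, with ISC replicate 1 the nearest for each. HOXD8 had 66.5, 57.3 and 30.1 scaled reads in ISC, 63.9, 42.2 and 75.4 in Fused and 93.3, 75.1 and 83.5 in Control. HOXC8 had 21.4, 28.6 and 31.1 scaled reads in ISC, 29.0, 25.1 and 21.9 in Fused and 22.6, 33.5 and 33.9 in Control. HOXB8 had 25.7, 33.4 and 23.1 scaled reads in ISC, 26.7, 23.1 and 20.8 in Fused and 30.2, 37.5 and 28.7 in Control. HOXD8 was lower in all ISC libraries than in all Control libraries, with Fused replicate 3 just inside the Control range, and HOXB8 was lower in all Fused than in all Control libraries; HOXC8 overlapped. HOXA7 had 18.2, 8.35 and 13.04 scaled reads in ISC, 15.1, 5.03 and 17.5 in Fused and 18.9, 24.0 and 11.3 in Control. HOXB5 had 15.0, 8.35 and 12.04 scaled reads in ISC, 16.3, 4.02 and 9.84 in Fused and 12.3, 16.0 and 17.4 in Control. In both the groups overlapped and Fused replicate 2 was the lowest library. HOXC5 was near the level of 3 reads, at 4.29, 2.39 and 2.01 scaled reads in ISC, 3.48, 1.006 and 4.37 in Fused and 3.77, 7.19 and 5.22 in Control.

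**Figure D2:**
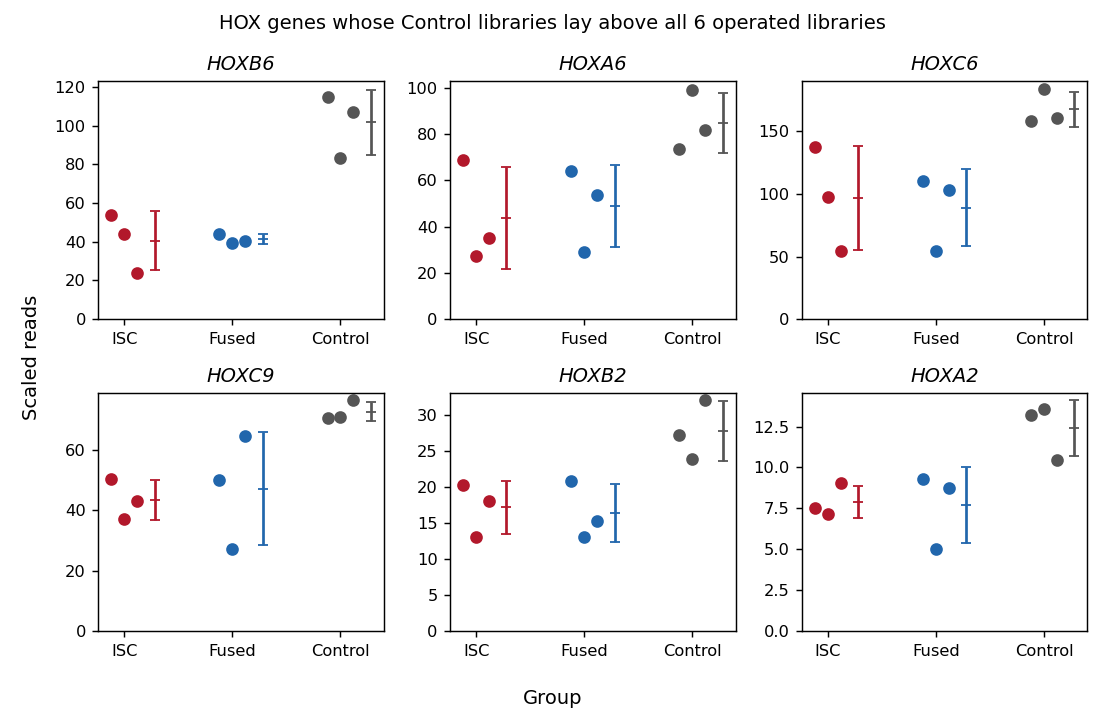
Scaled reads (y axis, from 0) of 6 HOX genes in each library of ISC, Fused and Control (x axis); points are libraries 1 to 3 from left to right, the dash and bar beside them the mean ± SD. These 6 were chosen because their lowest Control library lay above all 6 operated libraries; for HOXB6 the operated libraries run from 24.1 to 53.6 and the Control ones from 83.1 to 115.

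In group 9, whose genes act at thoracic levels, HOXA9 (chromosome 10, 11882131 to 11883940) had 214, 41.8 and 57.2 scaled reads in ISC replicates 1 to 3, against 91.7, 56.3 and 40.5 in the Fused libraries and 94.3, 164 and 108 in the Control libraries, in the same order. ISC replicate 1 was the highest of all libraries and ISC replicates 2 and 3 lay below the Control range, so ISC spanned more than the other groups; all Fused libraries were below all Control libraries. HOXC9 (chromosome 4, 37784074 to 37787586) had 50.4, 37.0 and 43.1 scaled reads in ISC, 49.9, 27.2 and 64.5 in Fused and 70.7, 71.1 and 76.5 in Control, with Control above all operated libraries. HOXB9 had 8.58, 26.3 and 15.0 scaled reads in ISC, 2.32, 38.2 and 8.75 in Fused and 8.48, 14.4 and 10.4 in Control, with its 2 highest values in Fused replicate 2 and ISC replicate 2, both rich in erythroid markers, and its lowest in Fused replicate 1; Fused replicate 3, as rich in erythroid markers, had 8.75. Fused replicate 2 and ISC replicate 2 were also rich in neutrophil markers (19676 and 13369 summed scaled reads). Fused replicate 2 had the highest neuron and glia sum too (3276, against 84.7 in ISC replicate 2). The part of any of these cell types in HOXB9 was not tested. HOXD9 had 7.51, 4.77 and 8.03 scaled reads in ISC, 8.13, 2.01 and 0 in Fused and 13.2, 11.98 and 5.22 in Control and was not read in Fused replicate 3.

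Group 10, which patterns the lumbar spine in mice, was the tail-most group with substantial reads. HOXA10 (chromosome 10, 11889668 to 11898253) had 288, 87.1 and 123 scaled reads in ISC replicates 1 to 3, against 236, 97.6 and 175 in the Fused libraries and 263, 213 and 238 in the Control libraries, in the same order, and ISC replicate 1 was again above the Control range while ISC replicates 2 and 3 were below it. HOXC10 (chromosome 4, 37769027 to 37774388) had 114, 83.5 and 74.2 scaled reads in ISC, 79.0, 49.3 and 142 in Fused and 176, 104 and 108 in Control, highest in Control replicate 1, with ISC replicate 1 and Fused replicate 3 within the Control range. HOXD10 was uneven even within Control: 2.14, 3.58 and 3.01 scaled reads in ISC, 3.48, 5.03 and 14.2 in Fused and 31.1, 0 and 6.09 in Control. Control replicate 1, the library with the highest value of HOXC10, HOXD10 and HOXA11, was also the one with the highest skeletal muscle sum (2141, against 8.78 and 289.7 in Control replicates 2 and 3); the part of muscle in these values was not tested. Satellite cell markers stayed between 0 and 3.02 summed scaled reads in the 9 libraries.

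Group 11 and beyond, which pattern sacral and tail levels, limbs and the urogenital tract, were low in all groups. Summed over 3 rows, group 10 had 404, 174 and 201 scaled reads in ISC, 318, 152 and 331 in Fused and 470.4, 317 and 352 in Control. Summed likewise, group 11 had 18.2, 10.7 and 15.0 scaled reads in ISC, 6.97, 10.1 and 12.03 in Fused and 20.7, 3.99 and 4.35 in Control. Every library thus held more reads of group 10 than of group 11. HOXA11 had 11.8, 8.35 and 13.04 scaled reads in ISC, 5.81, 7.04 and 6.56 in Fused and 14.1, 3.19 and 1.74 in Control, with all ISC libraries above all Fused ones. HOXC11 had 5.36, 2.39 and 2.01 scaled reads in ISC, 1.16, 3.02 and 4.37 in Fused and 4.71, 0.799 and 2.61 in Control, mostly near the level of 3 reads. HOXD11 had 4 reads over all 9 libraries. HOXA13, a gene of the distal limb and hindgut, had 12.9, 3.58 and 3.01 scaled reads in ISC, 4.65, 3.02 and 13.1 in Fused and 5.66, 5.59 and 6.09 in Control, low but read in 9 of 9 libraries. HOXC12 had 3 reads and HOXD13 1 read over the 9 libraries, and HOXB13, HOXC13 and HOXD12 had 0 in each, with the same limit of 3 reads a library as for HOXB1.

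As a gauge of position, the share of the scaled HOX reads in each paralogue class was set side by side for the libraries. Paralogues 10 to 13 held 26.1%, 19.2% and 24.2% in ISC replicates 1 to 3, 25.4%, 21.5% and 33.3% in the Fused libraries and 31.0%, 20.1% and 23.0% in the Control libraries. The group values were 23.2% ± 3.59 in ISC, 26.7% ± 6.003 in Fused and 24.7% ± 5.61 in Control (SD, n = 3 each), so the groups differed by less than the spread within Control. The range within Control, 20.1% to 31.0%, took in all ISC and Fused libraries but ISC replicate 2, just below it, and Fused replicate 3, above it. Paralogues 5 to 8 held 24.7%, 31.3% and 24.8% in ISC, 28.7%, 28.9% and 32.2% in Fused and 32.9%, 34.4% and 33.6% in Control, with every operated library below Control. Per kilobase of exon this did not hold: the share was 27.1%, 34.4% and 30.7% in ISC, 33.4%, 32.7% and 38.2% in Fused and 35.8%, 37.7% and 37.6% in Control, with Fused replicate 3 the highest library. Paralogues 1 to 4 held 32.3%, 38.3% and 37.4% in ISC, 34.1%, 33.5% and 24.0% in Fused and 24.5%, 29.4% and 30.8% in Control, so all ISC libraries lay above Control and Fused overlapped it. Per kilobase of exon ISC overlapped Control too, at 20.2%, 27.9% and 26.03% in ISC and 17.7%, 18.8% and 21.7% in Control. These shares add to a whole, so a lower share of a class raises the others. Group 9 held between 10.6% and 16.9% over the 9 libraries, with no separation. Its share rose when 2 neighbouring rows that RefSeq names HOXB9 and HOXD9, described below, were added. Group 9 then held between 16.4% and 23.2%, again with no separation. Its means were then 20.2% in ISC, 19.3% in Fused and 20.1% in Control, beside 19.8%, 23.1% and 21.9% for group 10.

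**Figure D3:**
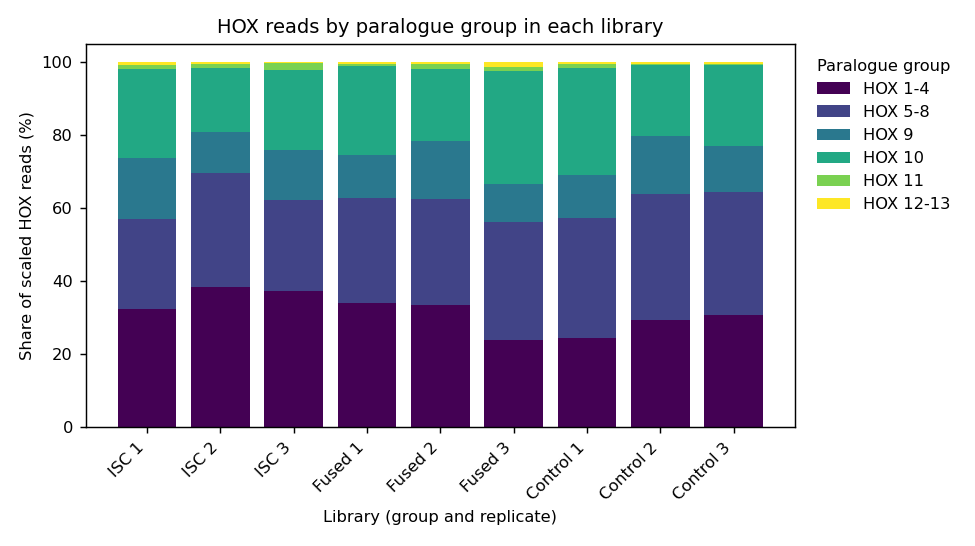
Share of the scaled HOX reads in each paralogue class (y axis, percent, stacked to the whole) in each library (x axis). The part of paralogues 10 to 13 varies as much within Control (20.1% to 31.0%) as between the groups, while the part of paralogues 5 to 8 is 24.7% to 32.2% in the operated libraries and 32.9% to 34.4% in Control; per kilobase of exon, not drawn, the operated libraries run from 27.1% to 38.2% and overlap Control at 35.8% to 37.7%.

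Across the HOX rows the likeness of libraries of different groups overlapped that of libraries of one group. Over 29 HOX rows, Pearson's r of log2(value + 1) was 0.901 to 0.951 between ISC libraries, 0.846 to 0.860 between Fused libraries and 0.858 to 0.947 between Control libraries. It was 0.888 to 0.941 between ISC and Control libraries, 0.804 to 0.959 between Fused and Control libraries and 0.834 to 0.9504 between ISC and Fused libraries. These are correlations across genes, which are not independent replicates.

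The fused level, set against the sham level, had 1 HOX gene past the test. HOXB6 fell to 41.3 ± 2.55 scaled reads in Fused, against 102 ± 16.6 in Control (SD, n = 3 each; log2 change -1.27, SE 0.188, adjusted p = 0.0164 in limma on the log2(value + 1) scale), and no other HOX gene passed the test. Of 36 HOX rows 28 had a value of at least 1 in 3 or more of the 6 libraries and were tested, the same 28 in each of the comparisons of ISC, Fused and Control. The 1 gene that fell is 3.57% of those tested, beside 2.6% of all genes, and 0 HOX genes rose, beside 3.98% of all genes (6.58% in either direction). At an unadjusted p under 0.05, 7 HOX genes were lower and 0 higher, beside 10.2% and 12.7% of all genes. The next smallest p-values were those of HOXC6, at 89.1 ± 30.4 in Fused and 168 ± 13.9 in Control (log2 change -0.97, SE 0.262, adjusted p = 0.065, limma), and HOXA9, at 62.8 ± 26.3 and 122 ± 36.8 (log2 change -0.98, SE 0.318, adjusted p = 0.105, limma). The Fused libraries lay below all Control libraries in 9 of 28 tested HOX genes, beside 13.3% of all genes, and above them in 0, beside 16% of all genes. The 9 were HOXA2, HOXA6, HOXA9, HOXB2, HOXB3, HOXB6, HOXB8, HOXC6 and HOXC9. The median log2 change of the 28 was -0.54, beside 0.025 over all genes, and 23 were below 0, beside 48.1% of all genes.

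The HOXB6 call depended on single libraries. It was lost without Fused replicate 2, Fused replicate 3, Control replicate 1 or Control replicate 2 (limma adjusted p = 0.0711, 0.0717, 0.0614 and 0.0916, with log2 changes between -1.17 and -1.41), and it was kept without Fused replicate 1 or Control replicate 3. In each of the fits that lost it, 0 genes of all those tested passed limma, so the loss was not particular to HOXB6. The HOXB6 call was also lost with all 9 libraries in one fit and with no mean-variance trend (limma adjusted p = 0.0716 and 0.0511). It was kept in edgeR and DESeq2 (adjusted p = 0.0187 and 0.000427). Without Fused replicate 1 a total of 6 HOX genes passed limma, HOXA6, HOXA9, HOXB6, HOXC6, HOXD4 and HOXD9, all lower; that is 21.4% of the 28, beside 14.9% of all genes, since 2191 genes were called in that fit. Fused replicate 1 was also set by itself against Control, leaving out the 2 Fused libraries richest in erythroid markers. From this 1 library the HOXB6 log2 change was -1.17 and the median of the 28 genes -0.26. That median was -0.27 without Fused replicate 2. Fused replicate 1 had an erythroid sum of 1267 and a neutrophil sum of 1838, against 171 or less and 220.1 or less in Control. The part of blood cells in the HOXB6 values was not tested. In the authors' deposited table HOXB6 was the only HOX gene called (q = 0.00921), 2.78% of 36 rows beside 6.01% of all rows.

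At the level of concentrated stress, set against the sham level, 0 HOX genes passed the limma test, beside 0.0488% of all genes (0.00697% lower and 0.0418% higher). At an unadjusted p under 0.05 there were 5 lower HOX genes and 0 higher ones, beside 5.69% and 5.83% of all genes. edgeR called 0 HOX genes among 4 called in all, and DESeq2 called 1, HOXB6, among 216. HOXB6 had the smallest p, at 40.6 ± 15.1 scaled reads in ISC and 102 ± 16.6 in Control (SD, n = 3 each; log2 change -1.36, SE 0.310, adjusted p = 0.313 in limma, 0.0421 in DESeq2). HOXC9 was at 43.5 ± 6.71 in ISC and 72.8 ± 3.27 in Control (log2 change -0.74, SE 0.195, adjusted p = 0.314, limma), and HOXA6 at 43.7 ± 21.9 and 84.8 ± 13.01 (log2 change -1.04, SE 0.336, adjusted p = 0.354, limma). The 3 ISC libraries lay below all Control libraries in 7 of 28 genes, HOXA2, HOXA6, HOXB2, HOXB6, HOXC6, HOXC9 and HOXD8, beside 8.73% of all genes, and above them in 0, beside 9.54%. The median log2 change was -0.44, beside 0.0038 over all genes, and 23 of 28 were below 0, beside 49.8% of all genes. It was -0.29 without ISC replicate 2, the ISC library richest in erythroid markers, and -0.61 without ISC replicate 1. ISC replicates 1 and 3 had erythroid sums of 483 and 415, also above the 171 or less of Control. In the authors' deposited table HOXB6 was the only HOX gene called between these groups (q = 0.0144), 2.78% of 36 rows beside 2.58% of all rows. Both comparisons use the same Control libraries, so their values are not independent.

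ISC was compared with Fused, the pair of operated levels. No HOX gene passed limma, beside 0.279% of all genes (0.0779% lower and 0.201% higher); 0 had an unadjusted p under 0.05 in either direction, beside 4.46% of all genes lower and 5.84% higher, and edgeR and DESeq2 called 0. The smallest p-values were those of HOXB3, at 33.5 ± 3.86 in ISC and 22.9 ± 3.42 in Fused (log2 change 0.53, SE 0.277, adjusted p = 0.587, limma), HOXD4, at 249.9 ± 80.9 and 170.0 ± 63.0 (log2 change 0.56, SE 0.323, adjusted p = 0.629, limma), and HOXD9, at 6.77 ± 1.75 and 3.38 ± 4.23 (log2 change 1.34, SE 0.807, adjusted p = 0.646, limma). In HOXB3 and HOXA11 all ISC libraries lay above all Fused libraries, 2 of 28 genes beside 8.08% of all genes; 0 lay below, beside 7.35%. HOXB6 was at 40.6 ± 15.1 in ISC and 41.3 ± 2.55 in Fused (log2 change -0.09, SE 0.331, adjusted p = 0.948, limma). The median log2 change was 0.099, beside -0.067 over all genes, and 9 of 28 were below 0, beside 55.6% of all genes. The median was -0.07 without ISC replicate 1 and -0.19 without Fused replicate 2. A p that misses the threshold does not show that the groups are alike.

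**Figure D4:**
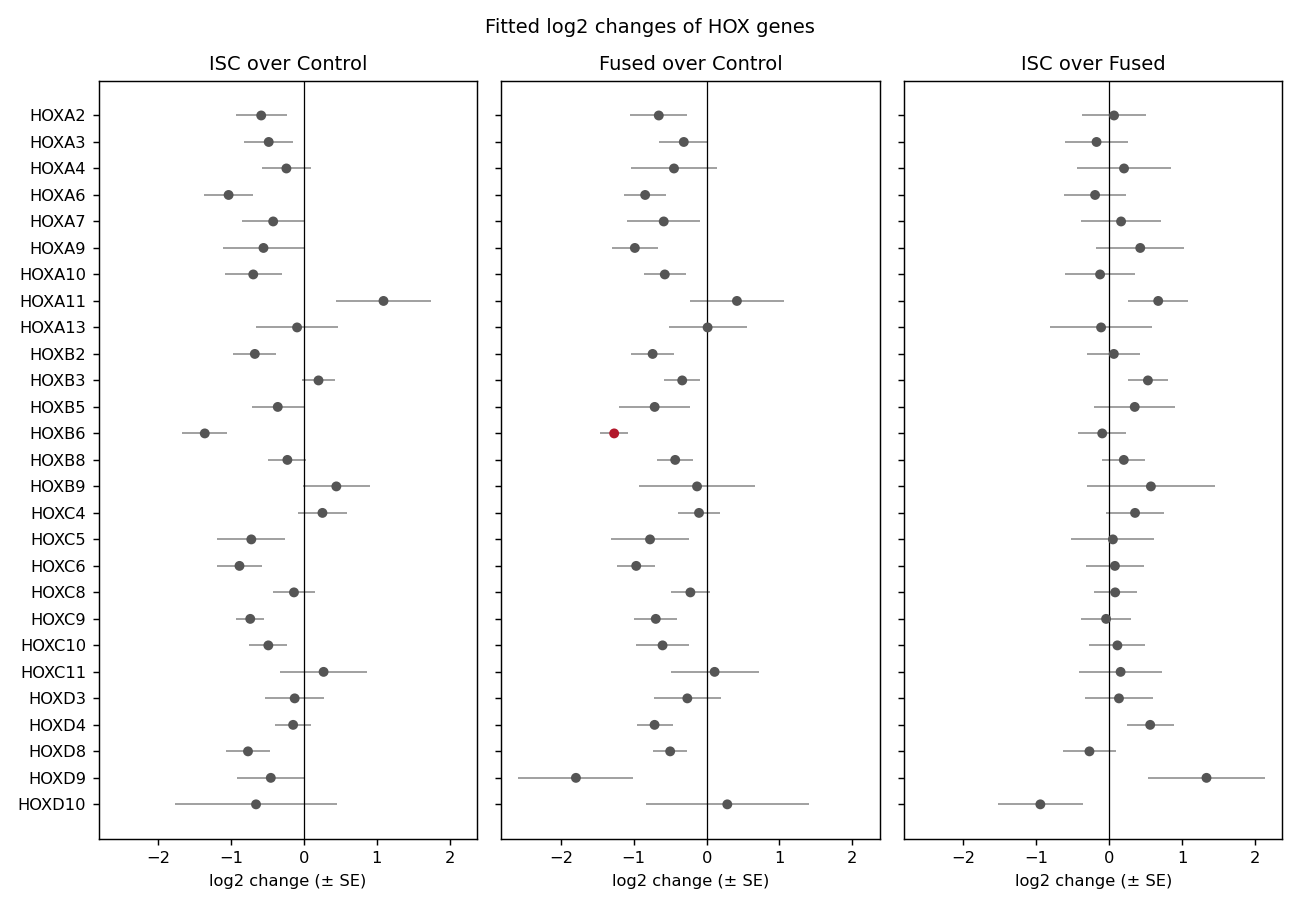
Fitted log2 change (x axis, with bars of ± SE) on the log2(value + 1) scale for tested HOX genes, by cluster and paralogue number (y axis), for ISC over Control, Fused over Control and ISC over Fused. HOXB6 in Fused over Control (red) is the only one with an adjusted p under 0.05 (0.0164); most genes of the first 2 panels lie below 0.

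Set as one operated group against Control, a comparison added after the values were seen, the 6 ISC and Fused libraries gave 0 HOX genes past limma among 29 tested, beside 0.0317% of all genes (0.019% lower and 0.0127% higher). Of these 29, 6 had an unadjusted p under 0.05, all lower, beside 5.25% of all genes lower and 7.28% higher; edgeR called 0 HOX genes among 2 called in all, and DESeq2 called HOXB6 among 574. HOXB6 had a log2 change of -1.32 (SE 0.239, limma adjusted p = 0.236; 0.000217 in DESeq2), lower in 6 of 6 operated libraries. These fits take the 6 libraries as independent, while the labels do not say which ISC and Fused libraries share an animal. All 6 operated libraries lay below all Control libraries in HOXA2, HOXA6, HOXB2, HOXB6, HOXC6 and HOXC9, 6 of 29 genes beside 3.25% of all genes, and above them in 0, beside 3.98%. The median log2 change was -0.43, beside 0.012 over all genes, with 25 of 29 below 0 beside 48.9% of all genes. It was -0.196 without the 3 libraries richest in erythroid markers, while that of HOXB6 was then -1.36 (limma adjusted p = 0.447). The operated libraries left in, ISC replicates 1 and 3 and Fused replicate 1, still had erythroid sums of 483, 415 and 1267. Their neutrophil sums were 842, 351 and 1838. Control had erythroid sums of 171 or less and neutrophil sums of 220.1 or less. The part of blood cells in these changes was not tested.

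The lower values were not spread evenly over the operated libraries. Of 29 HOX rows, 9 were below all Control libraries in ISC replicate 1 (26.5% of all genes were), 20 in ISC replicate 2 (31.9%) and 17 in ISC replicate 3 (28.6%). The counts were 14 in Fused replicate 1 (27.4% of all genes), 21 in Fused replicate 2 (30.5%) and 17 in Fused replicate 3 (30.5%). Above all Control libraries lay 8, 1 and 3 rows in ISC replicates 1 to 3, beside 28.1%, 35.3% and 34.8% of all genes, and 3, 2 and 2 rows in Fused replicates 1 to 3, beside 31.4%, 38.8% and 36.3% of all genes. ISC replicate 1 thus had 9 HOX rows below and 8 above Control. The erythroid sums were 483, 8408 and 415 scaled reads in ISC replicates 1 to 3 and 1267, 6618 and 7339 in Fused replicates 1 to 3. The part of blood cells in these counts was not tested. ISC replicate 1 and Fused replicate 1 are the operated libraries with the most HOX reads.

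Markers of other cell types separated Fused from Control. Over all genes, 3.98% rose and 2.6% fell in Fused against Control, and 0.0418% rose and 0.00697% fell in ISC against Control. For ISC against Fused these shares were 0.201% and 0.0779%. The fit of Fused against Control called 0 genes without Fused replicate 2, Fused replicate 3, Control replicate 1 or Control replicate 2. In ISC against Control 0 of 7 erythroid and 0 of 5 neutrophil markers tested passed, with medians of 3.33 and 3.54. Of 8 erythroid markers tested in Fused against Control 8 rose and of 5 neutrophil markers 5 rose, while of 8 ligament fibroblast markers tested 4 fell (ELN, COL3A1, TNXB and THBS4) and the median was -1.74. Of 6 haematopoietic progenitor markers 3 rose there (SPI1, GFI1 and MYB) and 1, CD34, which endothelial cells also make, fell. In ISC against Control 0 of 8 ligament fibroblast markers passed and their median was 0.68, beside a HOX median of -0.44. All 4 skeletal muscle markers tested had log2 changes below 0 in both comparisons with Control, with 0 called and medians of -2.34 in ISC and -2.95 in Fused. Of 5 cartilage markers 2 rose in ISC against Control (COL2A1 and COL9A1) and 0 passed in Fused; of 4 bone markers tested 2 rose in Fused (DMP1 and RUNX2) and 0 passed in ISC. Of 4 adipocyte markers 0 passed in either comparison with Control, yet their median log2 change was -3.08 in ISC and 0.096 in Fused, and LEP, CIDEC and FABP4 (-3.60, -3.54 and -2.62 in ISC, limma adjusted p = 0.156, 0.169 and 0.215) were lower in every ISC library than in every Control library. Of 7 neuron and glia markers 0 passed, with medians of -0.23 in ISC and 1.77 in Fused. Their sums differed widely between libraries. They were 1295, 84.7 and 147 scaled reads in ISC replicates 1 to 3, 1097, 3276 and 199 in Fused and 177, 378 and 190 in Control. In ISC against Fused the calls among all the cell type markers were FABP4 and CIDEC of adipocytes, which fell, and SOX9 of cartilage, which rose. The part of other cell types in the HOX values was not tested.

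Among the partners of HOX proteins, 0 of 8 tested TALE cofactor genes passed in Fused against Control, ISC against Control or ISC against Fused, with medians of -0.40, -0.31 and -0.05. PKNOX2 was at 67.9 ± 7.13 scaled reads in ISC, 56.3 ± 11.6 in Fused and 95.3 ± 15.6 in Control (limma adjusted p = 0.414 for ISC and 0.0776 for Fused). All its Control libraries lay above all operated ones, beside 3.25% of all genes. PBX3 was at 92.6 ± 19.2 in ISC, 105 ± 50.3 in Fused and 131 ± 38.3 in Control. MEIS1 averaged 13.2 ± 6.07 in ISC and 21.3 ± 4.53 in Control. Between ISC and Fused the smallest p-values were those of PKNOX1 (5.24 ± 3.18 in ISC and 1.78 ± 1.58 in Fused) and MEIS3 (11.3 ± 6.02 in ISC and 5.502 ± 3.58 in Fused). PKNOX1 was at or below the level of 3 reads in every Fused library. Cofactor transcripts were thus present in all groups, PBX4 at 0 in all 9 libraries excepted.

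Of 11 tested genes upstream of the clusters 1 fell in Fused against Control (9.09%, beside 2.6% of all genes). RARG, a retinoic acid receptor, fell to 165 ± 31.2 in Fused, against 372 ± 41.5 in Control (log2 change -1.18, SE 0.183, adjusted p = 0.0169 in limma). In ISC it averaged 233 ± 42.7 (log2 change -0.68, SE 0.192, adjusted p = 0.333 in limma against Control), with all ISC libraries below all Control libraries, beside 8.73% of all genes. CDX1, CDX2 and CDX4, caudal factors of the embryo, were at 0 in all 9 libraries. In ISC, 0 of 11 passed. ALDH1A1, an enzyme that makes retinoic acid, averaged 179 ± 90.9 in ISC and 322 ± 69.6 in Control, and ACVR2A, a receptor for activins and GDF11, averaged 33.2 ± 14.9 in ISC and 48.1 ± 3.57 in Control. Between ISC and Fused 0 of 11 passed, and the smallest p was that of ACVR2B (0.796 ± 1.38 in ISC and 4.73 ± 0.945 in Fused), followed by TGFBR1 (199 ± 118 in ISC and 93.0 ± 8.56 in Fused) and RARG. ACVR2B was below the level of 3 reads in every ISC library and only just above it in Fused.

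Of 26 tested Polycomb and Trithorax genes 2 rose in Fused against Control (7.69%, beside 3.98% of all genes) and 0 fell (beside 2.6%), with a median of -0.07. EZH2, the methyltransferase of the Polycomb complex that is also abundant in dividing cells, rose to 52.2 ± 28.3 in Fused, against 5.87 ± 1.78 in Control (log2 change 2.79, SE 0.511, adjusted p = 0.0207 in limma), beside the erythroid sums above. SUZ12, its partner, rose to 78.3 ± 16.9, against 36.5 ± 5.60 (log2 change 1.07, SE 0.231, adjusted p = 0.0335 in limma). In Fused replicate 1 alone, the Fused library with least erythroid signal, the log2 change against Control was 1.63 for EZH2 and 0.70 for SUZ12 (limma adjusted p = 0.352 and 0.381). In ISC against Control 0 of 26 passed; the smallest p-values were those of SUZ12 (69.3 ± 27.2 in ISC and 36.5 ± 5.60 in Control), PCGF2 (105 ± 7.37 in ISC and 144 ± 17.7 in Control) and CBX7 (77.7 ± 26.5 in ISC and 121 ± 11.7 in Control). In ISC against Fused 0 of 26 passed; those of small p included PHF19 (93.9 ± 22.5 in ISC and 63.5 ± 9.80 in Fused) and MEN1 (47.0 ± 5.92 in ISC and 34.0 ± 14.6 in Fused).

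Other regional transcription factors of mesenchyme were read as well. Of 17 tested in Fused against Control, 13 were below 0, beside 48.1% of all genes, with a median of -0.68. Of 18 tested in ISC against Control, 0 passed and 15 were below 0, beside 49.8% of all genes, with a median of -0.53. TBX15 averaged 135 ± 38.5 in ISC and 214 ± 24.4 in Control. TBX18, which acts in the anterior compartment of somites, averaged 30.9 ± 11.2 in ISC and 55.5 ± 4.86 in Control. MEOX2, a homeobox gene of somites, averaged 106 ± 10.3 in ISC and 145 ± 19.8 in Control. In each of these genes, picked for their small p-values, every ISC library was below every Control library, beside 8.73% of all genes. Between ISC and Fused 0 of 19 passed, with PRRX1, a marker of limb and connective tissue mesenchyme, at 95.3 ± 33.9 in ISC and 50.0 ± 7.32 in Fused, TCF15 at 1.87 ± 1.67 in ISC and 5.40 ± 0.901 in Fused and TBX2 at 20.6 ± 9.13 in ISC and 35.5 ± 8.48 in Fused. TCF15 was at or below the level of 3 reads in every ISC library. The call of RARG was lost without Fused replicate 2, Fused replicate 3, Control replicate 1 or Control replicate 2, and those of EZH2 and SUZ12 without any of these or Control replicate 3 (limma adjusted p between 0.0587 and 0.132). Over all genes, limma called 0 without Fused replicate 2, Fused replicate 3, Control replicate 1 or Control replicate 2. Without Fused replicate 1 the 4 lists held 11 called genes of 62 tested (17.7%), beside 14.9% of all genes.

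Some rows inside the clusters bear on how HOX reads were counted. LOC103349432, on the plus strand of chromosome 10 (11887950 to 11889808), shares 141 exon bases with HOXA10 on the minus strand and had 138, 35.8 and 44.1 scaled reads in ISC, 97.5, 46.3 and 76.5 in Fused and 123, 99.8 and 104 in Control, high and low in much the same libraries as HOXA10. LOC108178553, on the minus strand of chromosome 19 (38758823 to 38764559), shares 80 exon bases with HOXB6 and had 34.3, 38.2 and 46.1 scaled reads in ISC, 30.2, 28.2 and 19.7 in Fused and 35.8, 65.5 and 93.1 in Control. All Fused libraries of this row lay below all ISC and all Control libraries, ISC and Control overlapped, and Control replicate 1, the highest for HOXB6, was the lowest Control library here. Its part in the HOXB6 values was not tested. No source used here gives the strand setting of the counting, and reads in the shared bases may have gone to either row. LOC100358870 (chromosome 7, 115683517 to 115685111), which RefSeq names HOXD9 on assembly mOryCun1.1, stands next to the row HOXD9 and had 91.1, 63.3 and 49.2 scaled reads in ISC, 59.2, 54.3 and 84.2 in Fused and 139, 95.0 and 97.4 in Control, far above the HOXD9 row. LOC103351551 (chromosome 19, 38727896 to 38735107), which RefSeq names HOXB9 there, had 32.2, 21.5 and 19.1 scaled reads in ISC, 12.8, 17.1 and 20.8 in Fused and 28.3, 19.96 and 19.1 in Control. Reads of these 2 genes may therefore be split between rows, and the levels of HOXB9 and HOXD9 are uncertain.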

How the data were processed

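Per the series' design text, the authors mapped reads to rabbit oryCun2 with TopHat, also named in the submitters' processing notes, and used Cufflinks; no source used here gives the counting tool, strand setting, annotation or versions. The 3 deposited tables hold the same values (largest difference 0) for 23407 named rows: a signal the authors normalized with a factor for each library (TMM, by the tables' names). In every library 100% of values were whole multiples of the smallest (tolerance 1e-06), which gave back the reads; where 1 read is worth nearly 1 (ISC replicate 3 and Fused replicate 2), multiples could also be rounding. The deposited tables also give the authors' p-values and q-values, rank score and calls. A row without a gene name (1 row) was left out.

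limma 3.58.1 (R 4.3.3) with a mean-variance trend was fitted to log2(value + 1) of the 6 libraries of a comparison, for genes at 1 or more in at least 3 libraries. Calls are at a Benjamini-Hochberg adjusted p under 0.05 over all genes, two-sided; this scale understates changes of low genes. In edgeR 4.0.16 and DESeq2 1.42.0 recovered reads were tested as alternatives. The fit was tested on simulated counts. No pair of libraries in a group matched within counting noise (chi-square over genes, per gene, 6.07 or more). The members and lists were chosen with earlier results of these data known. Genes named are the members, the 3 of smallest p in each comparison, and called or smallest-p genes of 4 lists; some genes that this rule takes are not reported here. Counting intervals and limits cover counting error only. No sequence is printed.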

Additional observations from a re-analysis of the deposited data

How the results depend on the processing

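Alternatives were pseudocounts of 0.1 and 5, no filter or a minimum of 10, median centring, quantile normalization, all 9 libraries in a fit, no trend, the replicate block, each library left out, edgeR and DESeq2. The count of HOX genes called in Fused against Control, 1 by limma, was 0 with all 9 libraries in a fit, with no trend and without the 2 Fused libraries richest in erythroid genes, 2 with DESeq2 (HOXB6 and HOXC6) and between 0 and 6 without single replicates. The count of cofactor, upstream, Polycomb and regional genes called there, 4, was 0 under the same first 3 settings and between 0 and 11 without single replicates. In ISC against Control the HOX count of 0 was 1 with DESeq2 (HOXB6), and the count of the other genes was between 0 and 1 (ZIC1) without single replicates. For operated against Control, added after seeing the data like the settings on erythroid genes, DESeq2 called 1 HOX gene and 3 of the others (EZH2, RARG and SUZ12), where limma called 0 and 0. The HOX median of ISC against Fused was between -0.19 and 0.24 without single replicates. The share of paralogues 10 to 13 was 18.3% in ISC and 19.0% in Control per kilobase of exon, against 23.2% and 24.7% of scaled reads. Over all genes, limma called 7 in ISC against Control, 966 in Fused against Control and 43 in ISC against Fused; edgeR called 4, 870 and 34, DESeq2 216, 1358 and 335, the fit of all 9 libraries 14, 25 and 214, and that with no trend 8, 50 and 0. Without single replicates these counts were 4 to 38, 0 to 2191 and 0 to 24. In ISC against Control a pseudocount of 0.1 gave 4, and in ISC against Fused no filter gave 79, median centring 74 and quantile normalization 29. Of 234 values of results that answer a comparison, recomputed under the alternatives, 208 stayed near the main value, 24 moved and 2 reversed. Near means an equal or similar count, or a median or share that moved by less than the SD between libraries. A count could stay near while genes crossed the threshold. In Fused against Control the 4 cofactor, upstream, Polycomb and regional genes called became 6 with DESeq2. The labels do not say that replicate numbers pair the libraries. Deviations of same-numbered libraries correlated at 0.314, 0.312 and -0.10 between ISC and Fused and between -0.06 and 0.15 in the comparisons with Control, not over 0.1 in every pair, so the numbers were not used as pairs, and with the replicate block the HOX counts were 0, 1 and 0 in ISC against Control, Fused against Control and ISC against Fused, and the counts over all genes 3, 719 and 88. Rows near 3 reads, such as HOXC5 and HOXC11, are limited by depth.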
